A study of Mus musculus with 8 samples.

Results

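The serpins, the largest family of protease inhibitors in the mouse, were followed in RNA of isolated renal proximal tubules after cisplatin. Members were the gene rows whose Ensembl identifier pairs with a mouse symbol of the form Serpina to Serpini, which gave 54 of 21874 rows. Proximal tubular cells had been isolated from the renal cortex of male C57BL/6 mice, with cisplatin, a platinum chemotherapy toxic to these cells, injected intraperitoneally at 30 mg/kg. There were 4 groups of 2 libraries, taken 0, 24, 48 and 72 h after the injection, and no dose is listed for the 0 h group by itself. The duplicates are called biological in the design text, with no mention of separate animals, so p-values reflect only how far these libraries differ from each other, which may be technical. Libraries are named by time and by the letter a or b that their columns carry.

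Serpins share a fold with an exposed reactive loop that acts as bait for a protease. In an inhibitory serpin the protease cuts the loop, stays covalently attached, and is carried across the molecule as the loop inserts into a sheet, so that inhibitor and protease are both spent. Clade A holds secreted plasma serpins made largely by the liver, clade B holds serpins that stay mostly inside cells, and the remaining clades hold regulators of clotting, fibrinolysis and complement. A few members have kept the fold without the inhibition and serve as hormone carriers or as a collagen chaperone. In the kidney, tubule cells make plasminogen activators, which turn plasminogen into the clot-dissolving protease plasmin.

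Levels are FPKM (fragments mapped per kilobase, scaled to the library's mapped fragments), which are per length and so can be set side by side between genes. Of the 54 rows, 16 had at least 1 FPKM in at least 2 libraries and were tested, 30 were above 0 somewhere but stayed below that filter, and 8 were listed at 0 in every library. Tests were made with limma on log2(FPKM + 1) over all 10757 rows that passed the filter, with Benjamini-Hochberg adjustment over all of them. On this scale the fold changes of weakly expressed genes come out too small, and a change is called at an adjusted p below 0.05. FPKM give no depth, so no counting interval can be attached to these levels.

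The markers of the isolated cells fell over the 3 days. All 9 proximal tubule markers on the list were measured, and their summed level was 4415 and 4775 FPKM at 0 h, 1984 and 1712 FPKM at 24 h, 1127 and 1196 FPKM at 48 h, and 535 and 547 FPKM at 72 h. Total FPKM over all rows ranged from 314173 to 452114 in the 8 libraries, lowest at 48 h and highest at 0 h. Against 0 h, the median log2 change of all tested rows was -0.12 at 24 h, -0.13 at 48 h and 0.07 at 72 h, and it was 0.18 for 72 h against 48 h. In such bulk samples, fewer cells of a type and less RNA per cell cannot be told apart.

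The serpin RNA of the tubules changed its make-up over the 3 days. The summed level of the 54 rows was 331 and 350 FPKM at 0 h, 260 and 238 FPKM at 24 h, 206 and 203 FPKM at 48 h, and 329 and 331 FPKM at 72 h. The sums at 72 h thus lay near those at 0 h, with other genes in them. As a share of the total FPKM of the library, serpins made up 0.0935% in both 72 h libraries, against 0.0738% and 0.0774% in those of 0 h. At 0 h the most abundant row was Serpinf2, the plasmin inhibitor alpha-2-antiplasmin, with 40.7% and 39.3% of the serpin FPKM. It was followed by the row named Serpina1a, the alpha-1-antitrypsin genes, with 26.5% and 28.4%. At 72 h the most abundant was Serpinh1, the collagen chaperone HSP47, with 21.2% and 21.1%, and the row named Serpinb9b came next with 13.1% and 13.4%. Clade B made up 7.38% and 7.41% of the serpin FPKM at 0 h, 21.6% and 22.7% of it at 24 h, 29.5% in both libraries at 48 h, and 31.9% in both at 72 h. Clade A made up 35.8% and 38.4% of it at 0 h, 31.6% and 30.4% of it at 24 h, 15.4% and 19.7% of it at 48 h, and 22.4% and 21.8% of it at 72 h.

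**Figure D1:**
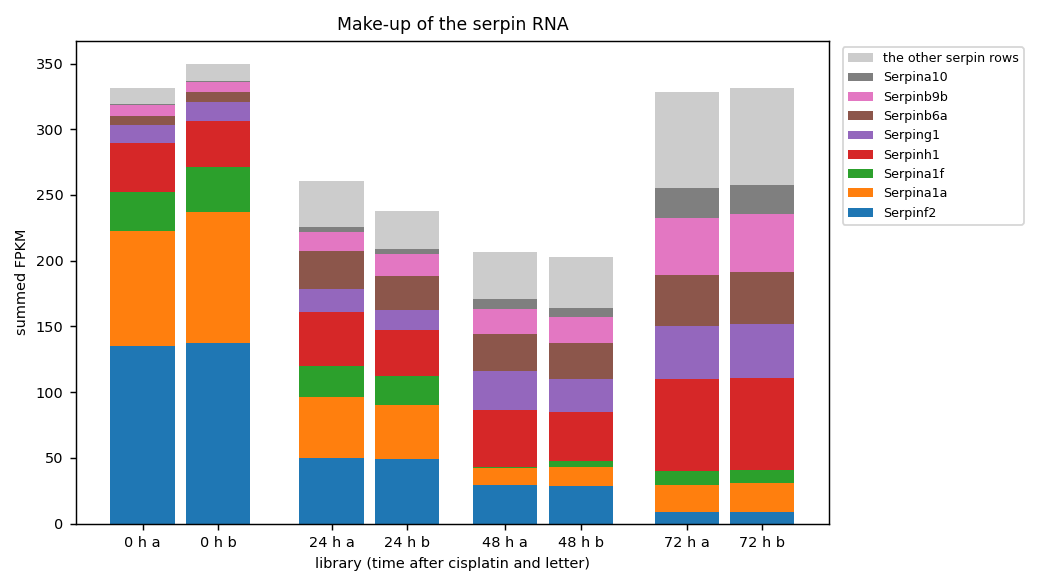
Summed FPKM of the 54 serpin rows in each of the 8 libraries, ordered by time after cisplatin and letter, with each bar split into 8 named rows and the sum of the others (grey). The share of Serpinf2 is 40.7% and 39.3% at 0 h, and Serpinh1 is the largest named row at 72 h with 21.2% and 21.1%.

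Most tested serpins changed, as did most tested rows, and among the called serpins more were higher than lower. At 24 h against 0 h, 12 of the 16 tested members passed, 9 higher and 3 lower, where 65.8% of all tested rows were called, 25.8% higher and 40.0% lower. At 48 h against 0 h, 14 passed, 10 higher and 4 lower, where 70.5% of all rows were called, 28.5% higher and 42.1% lower. At 72 h against 0 h, 15 passed, 12 higher and 3 lower, where 70.0% of all rows were called, 37.6% higher and 32.4% lower. Among members more rows rose than fell at each time, while among all rows more fell than rose at 24 and 48 h. When all libraries were given 1 common median, members split into 10 higher and 3 lower at 24 h, 11 higher and 3 lower at 48 h, and 12 higher and 3 lower at 72 h, while all rows split into 3451 and 3619, 3827 and 3885, and 3732 and 3847. With the same sum of FPKM outside mitochondrial rows, a scaling chosen after seeing the data, members split into 11 and 2, 12 and 3, and 13 and 2, and all rows into 3773 and 3213, 4963 and 2853, and 5430 and 2517. The median member changed by 0.60 at 24 h, 1.19 at 48 h and 1.70 at 72 h, or by 0.72, 1.32 and 1.63 relative to the median of all rows. The 3 comparisons share the 0 h libraries. The 38 members below the filter are outside these counts. A member that passed it only through libraries after cisplatin had to differ from 0 h. Serpina10, Serpina3g, Serpina3n and Serpina7 were among such members, with less than 1 FPKM in both 0 h libraries. They are counted as higher at 48 and 72 h and, apart from Serpina7, at 24 h too. They also enter the medians, so the splits at all 3 times are no independent sign of a rise.

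**Figure D2:**
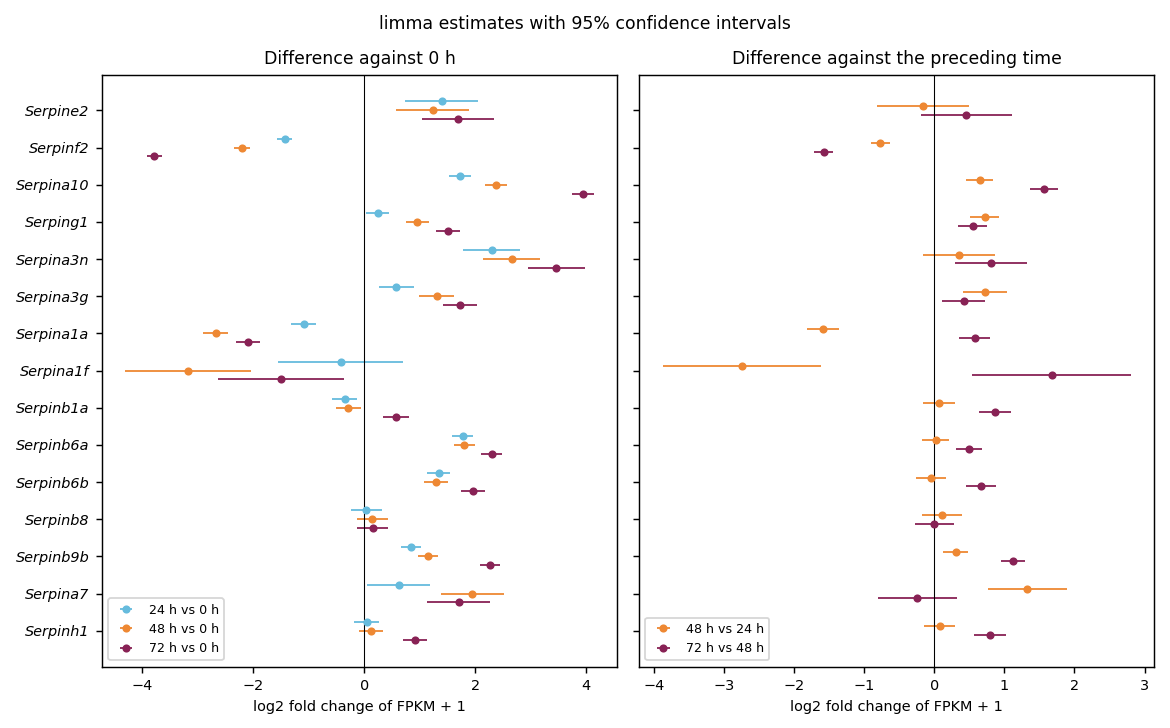
limma log2 fold changes of 15 tested serpins on the log2(FPKM + 1) scale, with 95% confidence intervals, against 0 h (left) and against the preceding time (right). Among those plotted, Serpina10 and Serpina3n lie furthest to the right at 72 h against 0 h, with 3.94 and 3.46, and Serpinf2 furthest to the left with -3.79.

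Among the tested serpins of clotting, fibrinolysis and complement described here, the inhibitor of plasmin fell at every time, and Serpina10, Serpine2 and Serping1 rose. Serpinf2, whose product is made mainly by liver and also by proximal tubules and inactivates free plasmin, lies on chromosome 11 (75431710 to 75440143, minus strand, build mm10). Its level was 135 and 138 FPKM at 0 h, 50.1 and 49.3 FPKM at 24 h, 29.1 and 28.5 FPKM at 48 h, and 9.05 and 8.86 FPKM at 72 h. The pairs of libraries did not overlap between any of the times, and each time was below the one before. At 72 h it stood at 8.95 ± 0.137 FPKM, against 136 ± 1.95 FPKM at 0 h (SD, n = 2 each), a log2 fold change of -3.79 ± 0.0603 (SE) with limma adjusted p = 6.17e-10. The row of Serpinf2 lies within the long rows named Mnt and Aspa. The Aspa row, on the same strand, had log2 fold changes of -0.53, -1.80 and -2.35 at 24, 48 and 72 h against 0 h. The Mnt row, on the other strand, changed by -0.47 and -0.49 at 24 and 48 h and did not pass at 72 h, with 0.06.

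The 250 bases before the annotated start of Serpinf2 are shown because this serpin fell furthest at 72 h (RefSeq, GRCm38.p6, chr11:75439502-75439751, minus strand, in lower case where no searched motif was found).
Serpinf2: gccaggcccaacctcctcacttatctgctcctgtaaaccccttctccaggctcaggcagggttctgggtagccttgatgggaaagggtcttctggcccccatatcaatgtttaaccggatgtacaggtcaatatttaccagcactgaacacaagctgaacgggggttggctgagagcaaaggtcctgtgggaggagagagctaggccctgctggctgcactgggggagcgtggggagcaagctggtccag
The motifs searched on both strands were GTTAAT (the core of an HNF1 site), TGANTCA (AP-1), TTCNNNGAA (STAT), GGGNNTTCC (NF-kB), CAGACA (Smad) and GAANNTTC (heat shock element). None of these 6 letter strings lies in this window.

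Serpina10, the protein Z-dependent inhibitor of factor Xa (chromosome 12, 103601363 to 103631506, minus strand), rose at every time. It had 0.549 and 0.513 FPKM at 0 h, 3.96 and 4.20 FPKM at 24 h, 7.27 and 6.65 FPKM at 48 h, and 23.0 and 22.1 FPKM at 72 h. The libraries of the 4 times did not overlap, and the log2 fold change at 72 h against 0 h was 3.94 ± 0.0856 (SE; limma adjusted p = 2.67e-09). Its row reaches 15.3 kb past the RefSeq gene into the end of Ppp4r4, whose own row on the other strand had a log2 difference of 0.04 at 72 h against 0 h and did not pass.

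Serpine2, protease nexin-1, a cell-surface inhibitor of thrombin and urokinase (chromosome 1, 79793793 to 79861180), had 1.34 and 0.639 FPKM at 0 h, 5.03 and 3.40 FPKM at 24 h, 3.23 and 4.01 FPKM at 48 h, and 4.12 and 6.83 FPKM at 72 h. All 6 libraries after cisplatin lay above both at 0 h, and the 24 h libraries overlapped those of 48 h and of 72 h, while those of 48 h lay just below those of 72 h. It was called higher at 24, 48 and 72 h, with log2 fold changes of 1.39, 1.23 and 1.69 and limma adjusted p of 0.00357, 0.00566 and 0.00123. Its changes between successive later times did not pass.

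Serping1, the C1 inhibitor, which restrains the complement protease C1 and plasma kallikrein (chromosome 2, 84765361 to 84778872), rose later. It had 13.6 and 13.8 FPKM at 0 h, 16.9 and 15.8 FPKM at 24 h, 30.2 and 25.0 FPKM at 48 h, and 40.2 and 41.3 FPKM at 72 h. The log2 fold change against 0 h was 0.24 at 24 h, 0.96 at 48 h and 1.51 at 72 h. The call at 24 h (limma adjusted p = 0.0447) was lost when either 0 h library was left out (0.138 and 0.108), either 24 h library (0.167 and 0.0567) or either 72 h library (0.0664 and 0.0665), and those at 48 and 72 h held in every setting tried.

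The partners of these serpins moved as well. Of 14 tested genes of the plasminogen and clotting list, 6 rose and 3 fell at 24 h, and 9 rose and 4 fell at 48 h. At 72 h, 11 rose and 1 fell. Of all rows, 25.8% were higher and 40.0% lower at 24 h, and 28.5% and 42.1% at 48 h. At 72 h, 37.6% were higher and 32.4% lower. The list had medians of 0.01, 0.72 and 2.06, where the medians of all rows were -0.12, -0.13 and 0.07. Fgb, on this list, passed the filter only through later libraries, with 0.375 and 0.446 FPKM at 0 h. Plat, tissue plasminogen activator, had 10.9 and 9.91 FPKM at 0 h, 47.1 and 46.5 FPKM at 24 h, 74.7 and 75.2 FPKM at 48 h, and 203 and 215 FPKM at 72 h. Plau, urokinase, was the most abundant activator at 0 h with 196 and 204 FPKM, fell at 24 and 48 h (log2 -0.41 and -0.62) and stood at 231 and 239 FPKM at 72 h (0.23, limma adjusted p = 0.00762). Plaur, the urokinase receptor, had 43.2 and 43.6 FPKM at 72 h, against 1.33 and 1.16 FPKM at 0 h. Plg, which encodes the plasmin precursor, was at most 0.181 FPKM in any library and was not tested. F2r, the thrombin receptor, rose at each time (1.59, 2.54 and 3.19), and Lrp1, the receptor that clears serpin-protease complexes, rose at 48 and 72 h (0.68 and 1.68) but not at 24 h (-0.11).

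**Figure D3:**
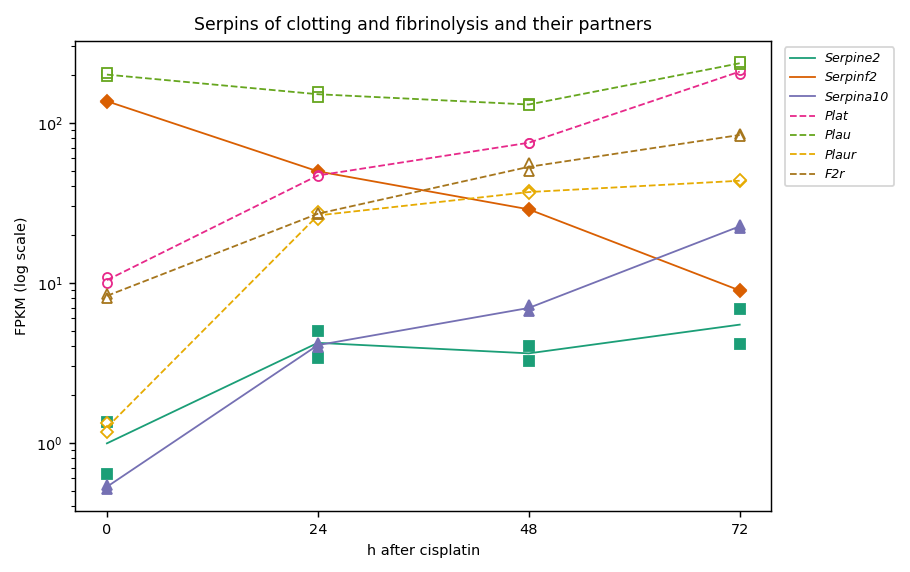
FPKM on a log scale in each library against hours after cisplatin, with 3 serpins as filled points and solid lines through the means, and 4 partners as open points and dashed lines. Serpinf2 is at 9.05 and 8.86 FPKM at 72 h, below Serpina10 at 23.0 and 22.1 FPKM, while Plat and Plau end above 200 FPKM.

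The alpha-1-antitrypsin and antichymotrypsin types, secreted inhibitors of neutrophil elastase and related proteases, split in direction. The Serpina1a row (chromosome 12, 103728156 to 103958975, minus strand) also spans Serpina1b, Serpina1c, Serpina1d and Serpina1e, which have no row of their own, so its value cannot be divided between the copies. It had 87.7 and 99.5 FPKM at 0 h, 45.9 and 40.9 FPKM at 24 h, 12.9 and 14.7 FPKM at 48 h, and 20.2 and 21.9 FPKM at 72 h. The libraries of the 4 times did not overlap, with the lowest level at 48 h. The row was lower than at 0 h at all 3 times, with log2 fold changes of -1.09, -2.68 and -2.10, and higher at 72 h than at 48 h by 0.58 (limma adjusted p = 0.00149). The same letters around the HNF1 core lie before the start of each of the 5 copies, shown here from 40 bases before to 10 bases after it with GTTAAT in capitals (RefSeq, GRCm38.p6, minus strand of chromosome 12).
Serpina1a: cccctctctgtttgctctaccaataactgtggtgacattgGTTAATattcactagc
Serpina1b: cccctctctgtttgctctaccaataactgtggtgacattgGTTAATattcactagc
Serpina1c: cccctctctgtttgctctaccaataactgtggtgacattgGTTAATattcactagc
Serpina1d: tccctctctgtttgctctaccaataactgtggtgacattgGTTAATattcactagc
Serpina1e: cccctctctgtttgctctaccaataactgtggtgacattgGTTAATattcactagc
These windows are chr12:103863625-103863680, chr12:103738200-103738255, chr12:103904962-103905017, chr12:103773634-103773689 and chr12:103956960-103957015 in the order of the lines. Any pair of the copies had 55 or 56 of the 56 bases in common. The core begins 21, 26, 27, 16 and 78 bases before the annotated start in the same order. GTTAAT or its reverse complement was found in 6.43% of 32851 promoter windows of 250 bases, and the longer run GTTAATATTCAC in the 5 copies alone. Among the 12 tested serpins with a promoter in the table, the core was also found for Serpina7 and Serpinb8. The AP-1 string, in 6.75% of the windows of 250 bases, was found for Serpina1a and Serpinb8. The Smad string, in 17.1% of them, was found for Serpinh1, and the heat shock string for none of these serpins.

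Serpina1f, a further gene of the alpha-1-antitrypsin group (chromosome 12, 103687772 to 103695618), had 29.5 and 33.8 FPKM at 0 h, 24.1 and 22.3 FPKM at 24 h, 1.29 and 4.71 FPKM at 48 h, and 11.01 and 10.1 FPKM at 72 h. Both 48 h libraries lay below all others and differed from each other by a larger factor than those of any other time. Its change at 24 h did not pass (log2 -0.43, limma adjusted p = 0.429), though it did without either 48 h library (0.00494 and 0.00530). It fell at 48 h against 0 h by 3.17 on the log2 scale (limma adjusted p = 0.00185). The call at 72 h against 0 h (-1.50, limma adjusted p = 0.0294) was lost when any 1 of 0 h, 24 h or 72 h libraries was left out. It was also lost with a pseudocount of 0.1 (0.0678) or 0.01 (0.0714) and with the same sum of FPKM outside mitochondrial rows (0.0601). The rise at 72 h against 48 h (1.67, 0.0304) was lost in the same 6 cases of a library left out and in the fit of these 2 groups alone (0.129).

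Serpina3n, an acute-phase relative of antichymotrypsin that inhibits granzyme B and leukocyte elastase (chromosome 12, 104406672 to 104414331, plus strand), was nearly absent at 0 h. It had 0.0226 and 0.0421 FPKM at 0 h, 5.31 and 3.08 FPKM at 24 h, 4.75 and 6.36 FPKM at 48 h, and 11.8 and 9.11 FPKM at 72 h. All libraries after cisplatin lay far above those at 0 h, those at 24 and 48 h overlapped, and those at 72 h were above both. The log2 fold change at 72 h against 0 h was 3.46 ± 0.220 (SE; limma adjusted p = 3.67e-06). The call for 72 h against 48 h (0.81, 0.0190) was lost without 48 h library a (0.103) or 72 h library a (0.108). Serpina3g, an intracellular relative that inhibits cysteine cathepsins in the mouse (chromosome 12, 104236241 to 104242114), had 0.661 and 0.438 FPKM at 0 h, 1.63 and 1.03 FPKM at 24 h, 2.75 and 2.89 FPKM at 48 h, and 4.15 and 4.06 FPKM at 72 h. Its log2 fold changes against 0 h were 0.58, 1.30 and 1.72, all called, and its libraries did not overlap between times. Its rise at 72 h against 48 h (0.42, limma adjusted p = 0.0317) was lost without either library of 48 h (0.121 and 0.0884) or of 72 h (0.113 and 0.0996). It was also lost with the same median in every library (0.22, 0.199), quantile normalisation (0.17, 0.286), a pseudocount of 0.1 (0.0969) or 0.01 (0.119), no filter (0.0721) or the same sum of FPKM outside mitochondrial rows (0.31, 0.0712). The mouse Serpina3 genes are near copies of each other, so fragments may have been split between their rows.

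The promoters of the risers in this subfamily are printed for the 250 bases before the start used in the promoter table, with matches to the 6 motifs in capitals (RefSeq, GRCm38.p6, plus strand, chr12:104406458-104406707 for Serpina3n and chr12:104235897-104236146 for Serpina3g).
Serpina3n: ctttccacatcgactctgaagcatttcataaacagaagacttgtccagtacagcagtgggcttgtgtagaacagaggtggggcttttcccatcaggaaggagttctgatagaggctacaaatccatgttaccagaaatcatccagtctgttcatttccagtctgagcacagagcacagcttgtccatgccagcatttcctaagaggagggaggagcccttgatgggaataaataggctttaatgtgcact
Serpina3g: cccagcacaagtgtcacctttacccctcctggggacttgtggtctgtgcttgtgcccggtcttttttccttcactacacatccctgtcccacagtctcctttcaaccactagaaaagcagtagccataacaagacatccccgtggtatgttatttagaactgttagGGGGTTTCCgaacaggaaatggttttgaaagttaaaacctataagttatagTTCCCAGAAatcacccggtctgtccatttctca
The window of Serpina3g holds GGGGTTTCC, a match to the NF-kB string, and TTCCCAGAA, a match to the STAT string. Those strings occur in 4.98% and 7.02% of all promoter windows. The STAT string was also found for Serpina1f, which fell, and for Serpinb6a, which rose. The window of Serpina3n holds none of the 6 strings, and it ends inside the RefSeq gene span, which begins at 104406646.

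The clade A genes of chromosome 12 lie in 1 cluster of 18 rows over 813 kb, and neighbours in it moved in opposite directions. At 72 h against 0 h, Serpina10, at one end of the cluster, and Serpina3g and Serpina3n, at its other end, were higher, and Serpina1f and the Serpina1a row between them were lower. At 72 h against 48 h all 5 tested rows of the cluster were higher, where 37.2% of all rows were, but the calls of Serpina1f, Serpina3g and Serpina3n were lost without single libraries, and that of Serpina3g with the same median in every library, as given above. Serpina3i and Serpina3k, between Serpina3g and Serpina3n, stayed below the filter. Serpina3i was listed at 0 in both 0 h libraries and had 0.614 and 0.543 FPKM at 72 h. Serpina3k, whose row also spans Serpina3m, was listed at 0 in both 0 h libraries too and had 0.572 and 1.07 FPKM at 72 h.

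**Figure D4:**
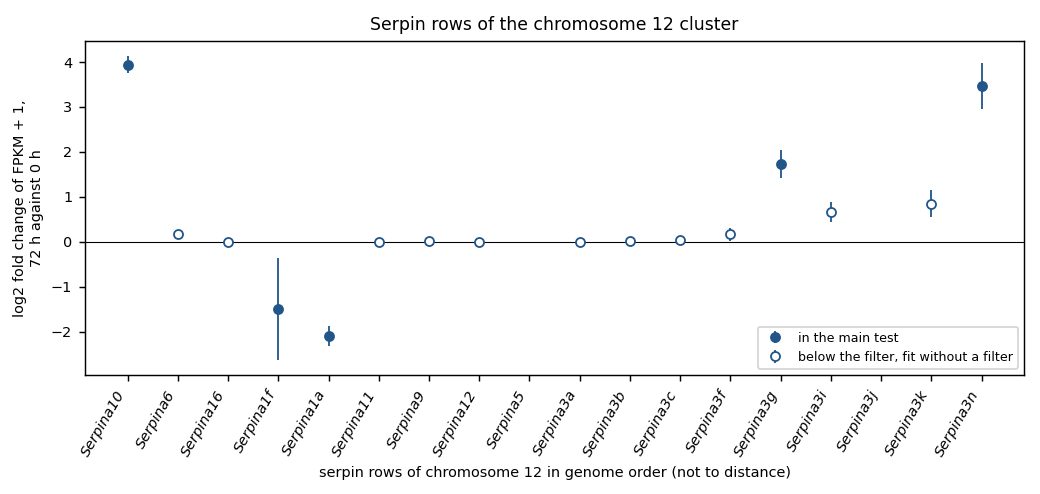
log2 fold change of FPKM + 1 at 72 h against 0 h for the serpin rows of chromosome 12 in genome order, with 95% confidence intervals. Filled points passed the filter on low values, open points come from the fit without a filter, and rows listed at 0 in every library have no point. Serpina1f (-1.50) and Serpina1a (-2.10) lie below 0 between Serpina10 (3.94) and Serpina3g (1.72).

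Among the intracellular clade B serpins, 5 of 23 rows other than Serpinb2 were tested. Of these, 3 rose and 1 fell at 24 and at 48 h, and 4 rose at 72 h, where 25.8%, 28.5% and 37.6% of all rows were higher. The shares of all rows called lower were 40.0%, 42.1% and 32.4%. Their median changes were 0.84 at 24 h, 1.14 at 48 h and 1.96 at 72 h, where those of all rows were -0.12, -0.13 and 0.07. Serpinb6a, an inhibitor of trypsin-like proteases and cathepsin G (chromosome 13, 33917886 to 34005577), had 6.90 and 7.58 FPKM at 0 h, 29.2 and 25.4 FPKM at 24 h, 27.6 and 27.7 FPKM at 48 h, and 39.2 and 39.5 FPKM at 72 h. The first step was the larger one, with 1.78 at 24 h against 0 h, and the level at 48 h against 24 h did not pass (0.02, 95% confidence interval -0.17 to 0.21). With the same sum of FPKM outside mitochondrial rows, that later difference was 0.22 and passed (limma adjusted p = 0.0364). Its row overlaps those of Ripk1 and Nqo2 on the other strand. Nqo2 had log2 fold changes of -0.94, -0.78 and -1.05 at 24, 48 and 72 h against 0 h, and Ripk1 of -0.01, -0.30 and -0.14, of which the value at 48 h passed.

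Serpinb6b, its relative in the same cluster (chromosome 13, 32965209 to 32979196), had 1.31 and 1.59 FPKM at 0 h, 5.26 and 5.10 FPKM at 24 h, 5.14 and 4.81 FPKM at 48 h, and 8.79 and 8.24 FPKM at 72 h. The course had the same steps as that of Serpinb6a, and the ratio of Serpinb6a to Serpinb6b FPKM stayed between 4.46 and 5.76 in the 8 libraries. The log2 fold changes of Serpinb6b against 0 h were 1.34, 1.29 and 1.96.

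The row named Serpinb9b (chromosome 13, 32999568 to 33041884) also spans Serpinb9, the inhibitor of granzyme B that protects cells from cytotoxic granules, and its value cannot be divided between them. It had 8.30 and 8.28 FPKM at 0 h, 14.7 and 16.6 FPKM at 24 h, 19.4 and 19.7 FPKM at 48 h, and 43.1 and 44.3 FPKM at 72 h. Its rise at 48 h against 24 h (0.31, limma adjusted p = 0.0186) was lost without 24 h library a (0.0791) or either 48 h library (0.0712 and 0.0844). The libraries of the 4 times did not overlap, and the log2 fold change at 72 h against 0 h was 2.27 ± 0.0772 (SE; limma adjusted p = 2.32e-08). Granzymes themselves were scarce. Of the 10 leukocyte serine proteases on the list, only Gzma passed the filter, with 0.570 and 1.03 FPKM at 72 h and 0.625 and 0.517 FPKM at 0 h, and Elane, neutrophil elastase, was at most 0.179 FPKM.

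Serpinb1a, an inhibitor of neutrophil elastase and cathepsin G (chromosome 13, 32842075 to 32898161), moved in both directions. It had 5.49 and 6.00 FPKM at 0 h, 4.72 and 3.86 FPKM at 24 h, 4.69 and 4.35 FPKM at 48 h, and 9.04 and 9.03 FPKM at 72 h. The Serpinb1a row reaches 45.0 kb past the RefSeq gene. The 24 and 48 h libraries were below those of 0 h, and the 72 h libraries above. The rise at 72 h (log2 0.57, limma adjusted p = 0.000805) held in every setting tried. The fall at 24 h (-0.35, 0.0126) was lost without 0 h library b (0.0786) or 24 h library b (0.0743), and with the same sum of FPKM outside mitochondrial rows (-0.16, 0.148). The fall at 48 h (-0.29, 0.0295) was lost without 0 h library b (0.146), 48 h library a (0.0538) or 48 h library b (0.134), with no filter (0.0526), with the same median in every library (-0.15, 0.161) or with quantile normalisation (-0.18, 0.0928), and with the same sum of FPKM outside mitochondrial rows the value was 0.08. Serpinb8, an inhibitor of furin, had 2.28 and 2.37 FPKM at 0 h, 2.08 and 2.77 FPKM at 24 h, 2.95 and 2.43 FPKM at 48 h, and 2.61 and 2.76 FPKM at 72 h, and passed in no comparison. The 48 and 72 h libraries lay a little above those of 0 h, and with the same sum of FPKM outside mitochondrial rows both differences passed (0.46 and 0.35). Its log2 difference at 72 h against 0 h was 0.15, with a 95% confidence interval of -0.13 to 0.43.

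The rows of the clade B genes on chromosome 13 lie within the long row named Cdkal1, which fell at all 3 times (log2 -1.08, -1.37 and -0.98), and its part in their values was not tested.

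**Figure D5:**
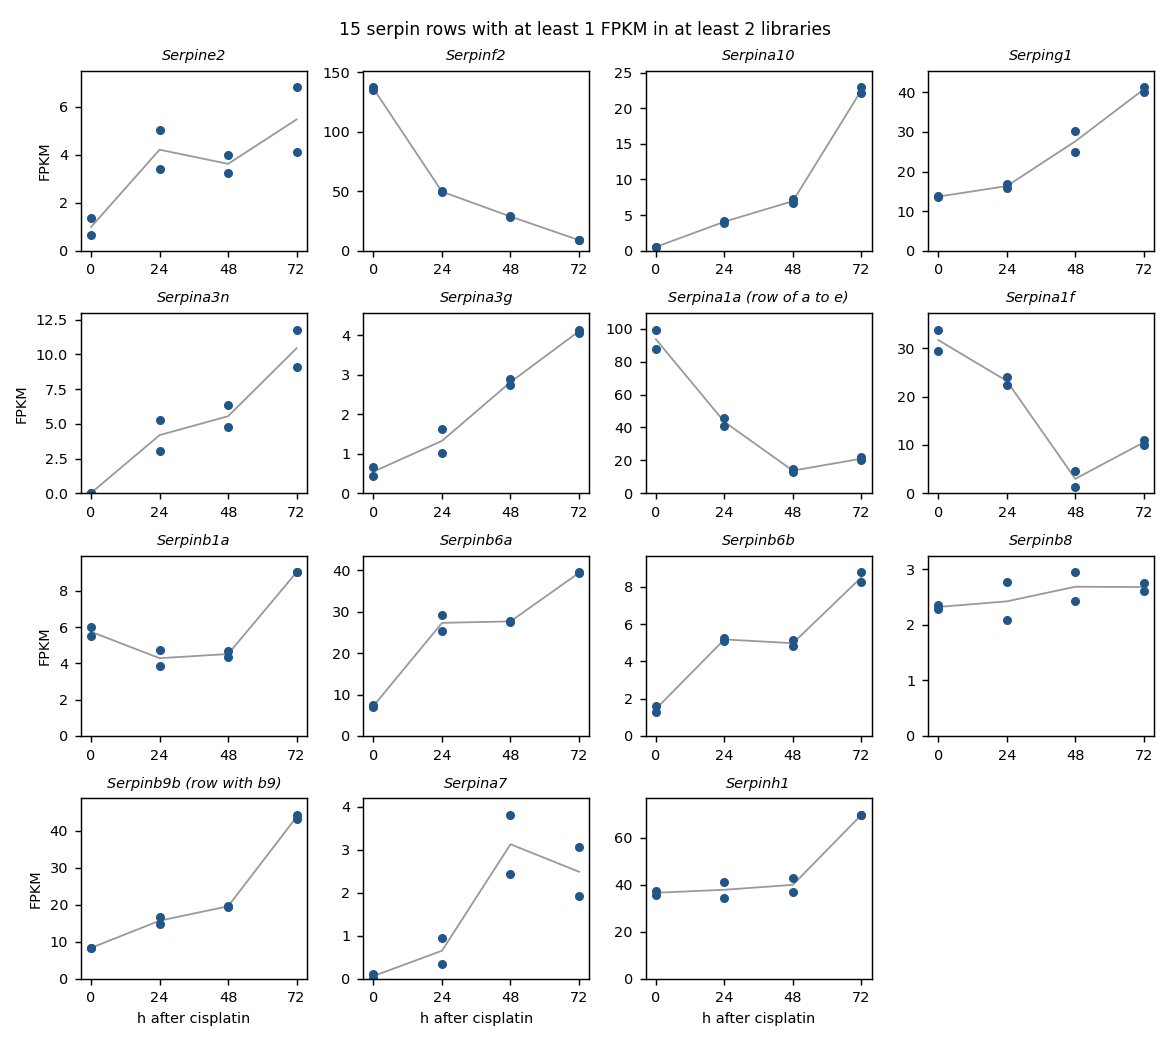
FPKM of 15 tested serpins in each library (points) against hours after cisplatin, with grey lines through the group means and every axis starting at 0. In FPKM as deposited, Serpinb6a and Serpinb6b show a step at 24 h, a plateau to 48 h and a further step at 72 h. Serpinh1 stays between 34.5 and 42.9 FPKM until 48 h and is at 69.7 FPKM in both 72 h libraries.

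Serpins that do not inhibit proteases were few in these tubules. Serpinh1, HSP47, the chaperone of the endoplasmic reticulum that binds folding procollagen (chromosome 7, 99345375 to 99353468), had 37.4 and 35.7 FPKM at 0 h, 41.1 and 34.5 FPKM at 24 h, 42.9 and 36.9 FPKM at 48 h, and 69.7 FPKM in both libraries at 72 h. The first 3 times overlapped and the last lay above them. It did not pass at 24 h (log2 0.04, 95% confidence interval -0.18 to 0.27) or 48 h (0.12, -0.10 to 0.34), and rose at 72 h by 0.91 (limma adjusted p = 3.37e-05). With the same median in every library the value at 48 h became 0.26 and passed (0.0254), and quantile normalisation gave calls at 24 and 48 h (0.31 and 0.53). The same sum of FPKM outside mitochondrial rows gave calls at 24 and 48 h (0.27 and 0.55). It also gave one for 48 h against 24 h (0.28). Of the 8 collagens on the list, 1 rose and 6 fell at 24 h, 7 rose and 1 fell at 48 h, and 7 rose at 72 h with none lower, with medians of -0.37, 0.58 and 1.71, where those of all rows were -0.12, -0.13 and 0.07. Col1a1 had 42.0 and 42.5 FPKM at 72 h, against 10.3 and 9.87 FPKM at 0 h. Of the 12 collagen chaperones and modifying enzymes other than HSP47, 2 were higher and 7 lower at both 24 and 48 h. At 72 h, 6 were higher and 4 lower. The shares of all rows to set beside both lists are 25.8% higher and 40.0% lower at 24 h. They are 28.5% and 42.1% at 48 h, and 37.6% and 32.4% at 72 h. P4hb, the shared subunit of prolyl hydroxylase, fell at 72 h by 0.64 on the log2 scale, with 152 and 170 FPKM, against 262 and 241 FPKM at 0 h.

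Serpina7, thyroxine-binding globulin, a hormone carrier of plasma (chromosome X, 139079257 to 139133240), had 0.0177 and 0.0988 FPKM at 0 h, 0.947 and 0.349 FPKM at 24 h, 2.44 and 3.82 FPKM at 48 h, and 1.91 and 3.06 FPKM at 72 h. The Serpina7 row reaches 48.0 kb past the RefSeq gene and overlaps 4930513O06Rik on the other strand, whose own row was at most 0.0152 FPKM. All libraries after cisplatin were above those at 0 h, and the 48 and 72 h libraries overlapped. The rise was called at 48 h (log2 1.95) and 72 h (1.70) but not at 24 h (0.62, limma adjusted p = 0.0544). At 24 h it passed with a pseudocount of 0.1 (2.16, 0.00414), and without 24 h library b (0.0219), either 48 h library (0.0392 and 0.0390) or either 72 h library (0.0430 and 0.0433). Serpinf1, the anti-angiogenic factor PEDF, stayed between 0.230 and 0.927 FPKM with overlapping groups. Serpina6, corticosteroid-binding globulin, was listed at 0 in both 0 h libraries and had 0.12 and 0.136 FPKM at 72 h. Agt, angiotensinogen, has the serpin fold but falls outside the symbol rule. It had 14.1 and 18.3 FPKM at 0 h, 9.21 and 9.03 FPKM at 24 h, 5.41 and 5.75 FPKM at 48 h, and 17.0 and 15.3 FPKM at 72 h, so that it was lower at 24 and 48 h (log2 -0.75 and -1.37) and did not pass at 72 h (0.0049, limma adjusted p = 0.973).

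Proteases and other inhibitors around the serpins moved unevenly. The shares of all rows to set beside these counts are 25.8% higher and 40.0% lower at 24 h. They are 28.5% higher and 42.1% lower at 48 h, and 37.6% higher and 32.4% lower at 72 h. Of 9 epithelial serine proteases, 1 rose and 7 fell at 24 and 48 h, and 2 rose and 6 fell at 72 h. Hpn, hepsin, had 33.5 and 38.1 FPKM at 72 h, against 185 and 176 FPKM at 0 h, and Prss8, prostasin, 21.7 and 21.9 FPKM, against 102 and 99.3 FPKM. St14, matriptase, rose to 45.5 and 46.7 FPKM at 72 h, against 14.7 FPKM in both 0 h libraries. Of 7 tested cysteine cathepsins, 2 rose and 4 fell at 24 h and 48 h, and 3 rose and 1 fell at 72 h. Ctss, cathepsin S, rose by 2.45 at 72 h. Of 14 tested protease inhibitors of other families, 6, 8 and 10 rose at the 3 times and 2, 4 and 4 fell. Timp1, an inhibitor of matrix metalloproteases, rose by 5.03 at 72 h and Slpi, an inhibitor of leukocyte elastase, by 3.75. Pzp, an alpha-2-macroglobulin type inhibitor, fell by 3.87 on the log2 scale. Timp1 and Slpi were below 1 FPKM in both 0 h libraries and passed the filter only through later ones. Of 11 tested acute phase and STAT3 genes, 9, 10 and 10 rose and 1 fell each time. Their medians were 1.32, 1.48 and 2.62, where those of all rows were -0.12, -0.13 and 0.07. Socs3 and Hp of this list were also below 1 FPKM in both 0 h libraries and passed only through later ones. Of 9 tested genes of transforming growth factor beta signalling, 5, 7 and 8 rose. Of 8 tested genes of complement and the contact system, 2 rose and 4 fell at 24 h, 3 rose and 3 fell at 48 h, and 5 rose and 3 fell at 72 h. C3, the central complement component, had 47.4 and 46.7 FPKM at 72 h, against 2.70 and 3.93 FPKM at 0 h. The C2 row, which also spans Cfb, had 64.3 and 62.4 FPKM at 72 h, against 168 and 166 FPKM at 0 h, and Kng2, a kininogen whose row overlaps that of Kng1, 56.1 and 48.5 FPKM, against 96.8 and 90.3 FPKM.

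After 24 h, more serpins were called between 48 and 72 h than between 24 and 48 h, as were more of all rows. With the same sum of FPKM outside mitochondrial rows, 12 serpins were called in the later step and 10 in the earlier. At 48 h against 24 h, 8 of 16 passed, 5 higher and 3 lower, where 28.3% of all rows were called, 11.2% higher and 17.2% lower. With the same sum of FPKM outside mitochondrial rows the members split into 7 and 3 and all rows into 2792 and 961, against 1200 and 1846 as deposited. In the fit of these 2 groups alone, Serpina1f and Serpinb9b lost their calls (limma adjusted p = 0.0889 and 0.0603). Without 24 h library a, Serpina1f also lost its call and Serpina3n gained one. Those higher were Serpina10, Serpina3g, Serpina7, Serpinb9b and Serping1, and those lower were Serpina1a, Serpina1f and Serpinf2. At 72 h against 48 h, 13 passed, 12 higher and 1 lower, where 48.4% of all rows were called, 37.2% higher and 11.3% lower. Serpinf2 was the one that fell, by 1.58 on the log2 scale, and Serpinb8, Serpine2 and Serpina7 did not pass. All rows split into 3999 higher and 1212 lower in that step, but into 2224 and 2580 with the same median in every library, where the serpins still split into 11 and 1. Among the serpins described, the largest rises of the step were in Serpina1f (1.67), Serpina10 (1.56) and Serpinb9b (1.12). The call of Serpina1f in this step was lost in several settings, as given above.

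The 38 members below the filter reached at most 1.07 FPKM. Of these, 11 were above 0.1 FPKM in both libraries of some group, and the other 27 did not exceed 0.282 FPKM. Serpinb2, PAI-2, an inhibitor of urokinase, was listed at 0 and 0.0117 FPKM at 0 h, and had 0.101 and 0.0128 FPKM at 24 h, 0.618 and 0.402 FPKM at 48 h, and 0.979 and 0.865 FPKM at 72 h. Serpini1, neuroserpin, an inhibitor of tissue plasminogen activator, had 0.118 and 0.157 FPKM at 0 h and from 0.460 to 0.954 FPKM in the 6 libraries after cisplatin. A fit without the filter took in the 30 of them that were above 0 somewhere. In it, 11 members were called higher at 72 h against 0 h, among them Serpinb2 (log2 0.93) and Serpini1 (0.58), and none lower. Of the 8542 rows below the filter in that fit, 12.4% were called higher and 5.27% lower. Many of these members were listed at 0 in both 0 h libraries and could not be called lower, so the absence of lower calls is no result. Serpind1, heparin cofactor II, had 0.239 and 0.266 FPKM at 72 h and 0.114 and 0.108 FPKM at 0 h. Of the clotting serpins named for their role after their values were seen, Serpinc1, antithrombin, was at most 0.282 FPKM, and Serpina5, the protein C inhibitor, was listed at 0 in all 8 libraries. The number of serpin rows above 0 was 25 in both 0 h libraries, 31 and 33 in those of 24 h, 38 and 36 in those of 48 h, and 37 and 36 in those of 72 h. Rows above 0 in the whole table also went up, with 15629 and 15781 at 0 h and 16171 to 17704 in the later libraries, and their part in the serpin number was not tested. None of 2163 circular RNAs in the deposited table overlapped a serpin gene or row, with total counts of 13603 to 21024 per library.

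Markers of other cell types also changed, and their counts are to be read beside the shares of all rows. Those shares are 25.8% higher and 40.0% lower at 24 h, and 28.5% and 42.1% at 48 h. At 72 h they are 37.6% higher and 32.4% lower, so counts near these shares are no trait of a cell type. Distal convoluted tubule markers, 4 of 4 tested, fell at each time, with a sum of 51.2 and 54.1 FPKM at 72 h, against 297 and 275 FPKM at 0 h. Thick ascending limb markers, 3 of 4 measured, fell in 3 at each time, and podocyte markers, 5 of 5 measured, rose in 4. Neutrophil markers, 7 of 7 measured and 6 tested, rose in 5 at 24 h and in 6 at 48 and 72 h. Their summed level was 77.7 and 75.1 FPKM at 72 h, against 1.08 and 1.30 FPKM at 0 h. All 6 tested were below 1 FPKM in both 0 h libraries and passed the filter only through later ones. They had to differ from 0 h, so these counts are no independent sign of a rise. Macrophage and monocyte markers, 6 of 8 measured and 4 tested, rose in 2 and fell in 1 at 24 and 48 h. At 72 h they rose in 4, with a sum of 132 and 135 FPKM, against 38.2 and 32.9 FPKM at 0 h. Of these, Mrc1 passed the filter only through later libraries, with 0.499 FPKM in both 0 h libraries. Fibroblast and pericyte markers, 6 of 6 measured and 5 tested, rose in 2 and fell in 1 at 24 h and rose in 4 at 48 h. At 72 h they rose in 5, with a sum of 128 and 123 FPKM, against 32.2 and 30.5 FPKM at 0 h. Endothelial markers, 7 of 7 measured, rose in 2 and fell in 2 at 24 and 48 h. At 72 h they rose in 6, with a sum of 132 and 136 FPKM, against 73.7 and 70.0 FPKM at 0 h. Of 4 collecting duct principal cell markers, 2 rose at each time, while 1 fell at 24 h and 2 at 48 and 72 h. Of 4 intercalated cell markers, 3 fell at each time and 1 rose at 72 h. Hepatocyte markers, 4 of 5 measured and 3 tested, fell in 2 at 24 h and in 3 at 48 and 72 h. Their sum was 12.4 and 12.2 FPKM at 72 h, against 88.8 and 102 FPKM at 0 h. Most of it was Ttr, transthyretin, with 9.59 and 9.15 FPKM at 72 h, against 79.7 and 89.2 FPKM at 0 h, and Alb, albumin, was at 2.48 and 2.95 FPKM at 0 h. Platelet markers, 4 of 5 measured, summed to 7.81 and 7.12 FPKM at 72 h, against 4.18 and 4.20 FPKM at 0 h. None of the markers measured in these lists was at 0 in every library. The part of these cell types in the serpin changes was not tested.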

How the data were processed

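The authors deposited linear RNA as FPKM per gene row and library, and circular RNA as whole-number counts per back-splice, per the file headers. The submitters' processing notes list Bowtie 0.12.2, TopHat2, Cufflinks and mm10 without saying what each was used for. Per the labels' protocols, Ribo-Zero depleted ribosomal RNA before library preparation, for which a small RNA kit is named. No source used here says if counting used strand, so overlapping genes and near copies cannot be separated with certainty. Symbols were matched by identifier for 19742 of 21874 rows. Of 68 serpin symbols, 14 had no row of their own. Replicates are lettered in the columns and numbered in the labels, so columns were assigned to time groups only.

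The filter kept 10757 rows. limma 3.58.1 (R 4.3.3, trend and robust options) was run on log2(FPKM + 1) with a mean per time over the 8 libraries together, 2-sided, with Benjamini-Hochberg adjustment. The procedure was tested on simulated data. Rows were compared with RefSeq spans (GRCm38.p6), counting a gene as covered at 50% of its length. Alternatives were other pseudocounts, filters and scalings, fits of the 2 groups compared, no trend, and each library left out. Of the tested serpins, 15 were named and the other is not reported here, though counts and sums over members hold it, low ones above 0.1 FPKM in both libraries of a group could be, and other lists by up to 4 genes of smallest adjusted p plus direct partners; Ttr is named as the main part of its sum. The members, lists and motifs were chosen with earlier results of these data known. The 8 normalised columns of the circular RNA table were not used.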

Additional observations from a re-analysis of the deposited data

How the results depend on the processing

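Replicate-block fits and, with no serpin circle, the circular RNA alternatives were not run. The number of serpins called stayed within 1.5 times its value in every setting, except that without a filter on low values 26 were called at 72 h against 0 h, because 46 rather than 16 rows entered the fit. Leaving out single libraries gave 10 to 14 calls at 24 h, 13 to 14 at 48 h, 14 to 15 at 72 h, 7 to 8 for 48 h against 24 h and 10 to 12 for 72 h against 48 h; the single library left in a group is then assumed to vary like the other groups. Of 640 single values with a library left out, 599 kept their direction and side of the threshold, 33 lost a call and 8 gained one. Of 720 under other settings, 685 kept both, 19 lost a call, 15 gained one and 1 turned its sign, Serpinb1a at 48 h against 0 h, to 0.078 with the same sum of non-mitochondrial FPKM in every library, a scaling added after the data were seen. That scaling moved the median of all rows at 72 h against 0 h to 0.30. No paired analysis was possible because the column letters cannot be tied to the replicate numbers of the labels, and no source says that a letter pairs libraries across times. Depth is unknown for FPKM, which limits statements on serpins below 1 FPKM most.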
